A study of Mus musculus with 19 samples.

Results

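The 38 genes described here encode a selection of cytosolic and mitochondrial chaperones and some related proteins. They cover HSP70 and HSP110 proteins, HSP90 and its co-chaperones, J proteins and BAG factors, small heat shock proteins, mitochondrial chaperones and the TRiC chaperonin. The collagen chaperone of the endoplasmic reticulum, grouped with the small heat shock proteins, and 2 heat shock factors are included too. The genes were chosen by name, with earlier results of these data known. Each was read from its brightest probe set with 1 gene symbol. Of the 38, 35 had such a probe set and 33 passed a filter on dim genes (over log2 4 on at least 4 arrays), out of 18193 genes on the array and 8515 that passed. Hsp90ab1, Hsf1 and Ptges3 had no probe set that could be used, and Hspa1a and Hsf2 were under the filter.

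Gene expression was measured on 19 Affymetrix arrays, 1 per mouse, in livers of male C57BL/6 mice of 10 to 12 weeks taken 2 h after an 85% liver resection. There were 4 mice lacking both Ager and Myd88 (Ager_Myd88_null), 6 lacking Ager (Ager_null), 4 lacking Myd88 (Myd88_null) and 5 wild-type mice (WT). Ager encodes RAGE, a receptor for HMGB1 and S100 proteins, Myd88 encodes the adaptor of most Toll-like receptors and of the IL-1 receptor, and both are labelled as null in the whole animal. Every liver had been resected, so the values compare genotypes after surgery and say nothing of the surgery itself.

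Chaperones bind unfolded proteins and help them fold, assemble or be degraded. HSP70 proteins take up clients that J proteins deliver, and HSP110 proteins and BAG factors make them release these clients. HSP90 completes the folding of kinases and steroid receptors with co-chaperones such as Stip1, which passes clients over from HSP70. Heat shock factor 1 switches on many of these genes when unfolded protein accumulates, by binding heat shock elements, which are repeats of GAA and TTC in turn, spaced by a pair of bases. Hepatocytes make and secrete much protein and carry many mitochondria, and they use both sets of chaperones without stress.

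Between Ager_null and WT livers 1 chaperone gene passed the test. The co-chaperone gene Stip1 was higher in Ager_null than in WT, by 0.59 ± 0.14 on the log2 scale (SE, 1.51-fold, limma adjusted p = 0.0493). Hsph1, Hspa4l, Chordc1, Hsp90aa1 and Hspd1 had the next smallest p-values, all with positive changes, and did not pass. Among other members the changes ran in both directions, with 0.73 for Hspb1, 0.60 for Serpinh1, 0.04 for Dnajb1, -0.28 for Hspa1b and -0.48 for Bag3. None of these passed. Of the 33 tested members, 24 had a change above 0 and 9 below. In livers lacking both genes Chordc1, a co-chaperone gene of HSP90, was lower than in Ager_null livers by 0.78 ± 0.20 (0.581-fold), and Hspd1, which encodes the mitochondrial chaperonin HSP60, was lower by 0.46 ± 0.11 (0.727-fold), both with a limma adjusted p of 0.0466. No member passed between Myd88_null and WT, between Ager_Myd88_null and WT or between Ager_Myd88_null and Myd88_null.

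These calls lie at the threshold. With 1 array left out at a time, Stip1 kept its call without Ager_null 1, Ager_null 6, Myd88_null 1 or Myd88_null 4 and lost it without any 1 of the other 15 arrays (adjusted p from 0.0335 to 0.109, change from 0.49 to 0.65). Hspd1 kept its call without WT 3, Myd88_null 1, Myd88_null 3 or Myd88_null 4 and lost it without any 1 of the other 15 (adjusted p from 0.0149 to 0.157, change from -0.51 to -0.43). Chordc1 kept its call without Ager_null 2, Myd88_null 1, Myd88_null 3, Myd88_null 4 or Ager_Myd88_null 1 and lost it without any 1 of the other 14 (adjusted p from 0.0141 to 0.156, change from -1.02 to -0.60). In all 19 fits of each gene the direction was kept.

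The sample descriptions carry an S number of unstated meaning. The ranges S 1 to 6, S 7 to 12 and S 13 to 20 used here were cut from it for the analysis. The labels state no batch. All 6 Ager_null arrays lie in S 13 to 20 with only WT 5 and Myd88_null 4, the 4 Ager_Myd88_null arrays lie in S 1 to 12, and so S range and genotype cannot be told apart between Ager_Myd88_null and Ager_null. Myd88_null 4 was the array least like the rest, its median correlation over the tested genes being 0.965, against 0.979 or more for each other array. Myd88 itself matched the labels on every array (at most 3.86 in groups without it, at least 5.24 in groups with it), whereas Ager was under the filter in all groups and checks no label. The tissue label is liver, but 1 protocol text speaks of glomeruli. The 10 hepatocyte markers read 14.6 (log2) at the median, while 6 of 7 markers of kidney and glomerulus did not reach log2 4 on any array. The difference between the array's 3-prime and 5-prime Gapdh control probe sets, a sign of RNA quality, was 0.153 to 0.275 in Ager_Myd88_null, 0.0848 to 0.145 in Ager_null, 0.135 to 0.439 in Myd88_null and 0.0673 to 0.406 in WT. Ager_null arrays thus lay below all Ager_Myd88_null arrays on the Gapdh measure. The same difference for the beta-actin controls was 1.10 to 1.68 in Ager_null and 1.18 to 1.54 in Ager_Myd88_null, with overlap. The part of RNA quality in the results was not tested.

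Among the HSP70 and HSP110 genes, 6 of 7 were tested and 0 were called in any comparison by limma. At an unadjusted p under 0.05, 2 were higher in Ager_null than in WT and 3 lower in Ager_Myd88_null than in Ager_null. Of all tested genes, 21.6% and 22.7% had such a p in these comparisons, in either direction. Hsph1 encodes HSP110, a nucleotide exchange factor that resets HSP70 and helps to dissolve aggregates. Its levels were 10.21, 8.38, 8.19 and 8.75 (log2) in Ager_Myd88_null, 9.94 at the lowest, 10.30 at the median and 10.92 at the highest in Ager_null, 8.94, 8.09, 10.03 and 10.57 in Myd88_null, and 8.48, 8.12, 9.14, 9.63 and 9.50 in WT. All 6 Ager_null arrays lay above all 5 WT arrays, while Ager_Myd88_null 1, Myd88_null 3 and Myd88_null 4 reached into the Ager_null range. The change was 1.39 ± 0.42 between Ager_null and WT (2.62-fold, limma adjusted p = 0.0834) and -1.48 ± 0.45 between Ager_Myd88_null and Ager_null (0.359-fold, adjusted p = 0.0832). Against WT 5, the WT array in the same S range, the Ager_null mean was 0.86 higher. The promoter of Hsph1 is shown because this gene had the largest change of the members in both comparisons, and it holds a pair of facing heat shock units (capitals) 26 bases before the start (RefSeq, GRCm38.p6, minus strand, chr5:149636337-149636586).
Hsph1: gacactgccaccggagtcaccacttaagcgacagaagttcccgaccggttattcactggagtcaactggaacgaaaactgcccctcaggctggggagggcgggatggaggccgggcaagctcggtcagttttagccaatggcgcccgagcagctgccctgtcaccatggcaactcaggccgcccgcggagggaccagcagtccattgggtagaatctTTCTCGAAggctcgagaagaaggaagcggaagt

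Hspa4l, a paralog of the HSP110 genes, had 5.25, 5.45, 5.25 and 4.41 in Ager_Myd88_null, 5.37, 5.78 and 6.88 as the lowest, median and highest values in Ager_null, 4.69, 4.62, 5.33 and 5.89 in Myd88_null, and 4.47, 4.59, 5.33, 5.05 and 4.92 in WT. Ager_null and WT did not overlap, although Ager_null 1 stood only slightly above WT 3. The changes were 1.11 ± 0.28 between Ager_null and WT (limma adjusted p = 0.057) and -0.89 ± 0.30 between Ager_Myd88_null and Ager_null (adjusted p = 0.107). Its dimmer probe set gave 0.34 and -0.44 for the same comparisons, the same signs at less than the size. Hspa8, which encodes the constitutive HSP70 protein HSC70, read 13.53, 13.32, 13.02 and 13.41 in Ager_Myd88_null, 13.47, 13.53 and 13.75 as lowest, median and highest in Ager_null, 13.35, 13.29, 13.48 and 13.64 in Myd88_null and 13.30, 13.28, 13.65, 13.52 and 13.48 in WT. Its levels overlapped in every pair of groups, and its change was -0.25 ± 0.11 between Ager_Myd88_null and Ager_null (limma adjusted p = 0.193). Hspa4, another HSP110 relative, was at 10.69 ± 0.16 (SD, n = 4) in Ager_Myd88_null, 10.76 ± 0.14 (n = 6) in Ager_null livers, 10.85 ± 0.14 (n = 4) in Myd88_null livers and 10.74 ± 0.13 (n = 5) in WT. Hspa14, a ribosome-bound member of the family, ranged from 7.24 to 8.34 over all arrays, with no p under 0.05 by its brightest set. Its dimmer set gave 0.40 between Ager_Myd88_null and Ager_null (unadjusted p = 0.0177, limma adjusted p = 0.147), 0.40 between Ager_Myd88_null and Myd88_null (unadjusted p = 0.0264, adjusted p = 0.28) and an interaction of 0.68 (unadjusted p = 0.00591, adjusted p = 0.0804).

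Hspa1b encodes the classical stress-inducible HSP70. It read 10.44, 9.34, 8.70 and 8.01 in Ager_Myd88_null, 7.52, 9.21 and 10.54 as lowest, median and highest in Ager_null, 9.12, 9.77, 8.59 and 9.96 in Myd88_null, and 8.96, 8.19, 10.98, 9.24 and 10.04 in WT. Every group spread over more than 1 log2 unit and all overlapped. Its SD within groups was 0.978, against a median of 0.166 for the tested members and 0.273 for all tested genes. The change between Ager_null and WT was -0.28 with a 95% interval from -1.41 to 0.86, which holds both a fall and a rise of the size seen for Stip1. The 3 probe sets of Hspa1b gave -0.28, -0.18 and -0.22. Its near-identical copy Hspa1a read 5.11 on WT 3 and 4.09 on Ager_null 4, the arrays where Hspa1b was highest in those groups, and was under log2 4 on the other 17. Array probes can bind transcripts of both copies, so their signals may not be separate. Hspa1b and Hspa1a lie on chromosome 17 with 20 and 21 protein-coding genes between them and Ager in the RefSeq order, so in the groups without Ager they sit in the stretch of chromosome around the altered locus. The Hspa1b promoter is shown as that of the gene that varied most within groups. It holds a pair of facing units 97 bases before the start (RefSeq, GRCm38.p6, minus strand, chr17:34959239-34959488), and that of Hspa1a is identical to it at 247 of 250 bases (98.8%).
Hspa1b: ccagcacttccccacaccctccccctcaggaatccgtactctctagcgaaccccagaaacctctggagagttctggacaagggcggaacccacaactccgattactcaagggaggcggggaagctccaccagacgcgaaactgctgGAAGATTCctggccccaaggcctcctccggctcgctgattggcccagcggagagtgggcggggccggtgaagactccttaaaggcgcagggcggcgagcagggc

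**Figure D1:**
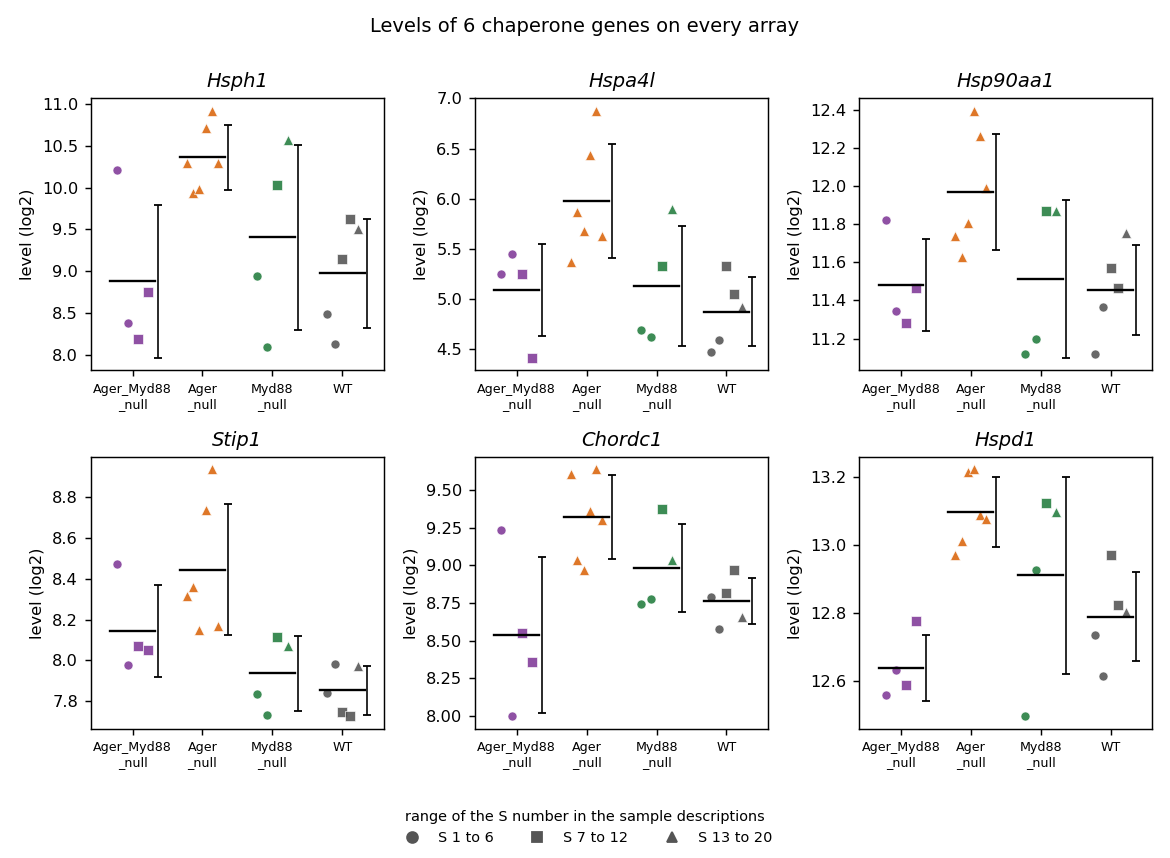
Levels (log2, vertical axis) of 6 chaperone genes on each array by genotype (horizontal axis), with a line at the group mean, a bar of 1 SD beside it and the point's shape giving the S range. The 6 Ager_null arrays lie above all 5 WT arrays for Hsph1, Hspa4l, Stip1 and Hspd1, and above all 4 Ager_Myd88_null arrays for Hspd1.

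HSP90 and its co-chaperones gave 7 tested genes, of which 1 was higher and 0 lower in Ager_null than in WT, with all 7 changes above 0 and a median change of 0.19. Of all tested genes, 1.26% were called there and 52.2% had a change above 0. Hsp90aa1 encodes the inducible cytosolic HSP90. It read 11.82, 11.35, 11.28 and 11.47 in Ager_Myd88_null, 11.63, 11.90 and 12.40 as lowest, median and highest in Ager_null, 11.12, 11.20, 11.87 and 11.87 in Myd88_null and 11.12, 11.36, 11.57, 11.47 and 11.75 in WT. Of the WT arrays only WT 5 reached into the Ager_null range, and the highest reading of all was an Ager_null one. The change was 0.52 ± 0.18 between Ager_null and WT (limma adjusted p = 0.114) and -0.49 ± 0.19 between Ager_Myd88_null and Ager_null (adjusted p = 0.142). Its other 2 probe sets gave 0.75 and 0.88, and -0.92 and -0.82, so the brightest one gave the least change in each comparison. Against WT 5 alone the Ager_null mean of Hsp90aa1 was 0.22 higher.

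Stip1, also called HOP, joins HSP70 and HSP90. Its levels were 8.47, 7.98, 8.07 and 8.05 in Ager_Myd88_null, 8.15, 8.34 and 8.93 as lowest, median and highest in Ager_null, 7.84, 7.73, 8.12 and 8.07 in Myd88_null, and 7.84, 7.98, 7.75, 7.73 and 7.97 in WT. Every Ager_null array was above every WT array, and Ager_Myd88_null 1 lay within the Ager_null range. The change against WT was 0.59 ± 0.14 in Ager_null, 0.29 ± 0.16 in Ager_Myd88_null (limma adjusted p = 0.66) and 0.09 ± 0.16 in Myd88_null (adjusted p = 0.792). Within S 13 to 20 the Ager_null mean was 0.47 above WT 5, and with the S range as a fixed block the change of 0.46 had an adjusted p of 0.321.

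Chordc1, also called CHP-1, is a zinc-binding partner of HSP90. It had 9.23, 8.00, 8.55 and 8.36 in Ager_Myd88_null, 8.97, 9.33 and 9.64 as lowest, median and highest in Ager_null, 8.75, 8.78, 9.37 and 9.04 in Myd88_null, and 8.79, 8.58, 8.81, 8.97 and 8.66 in WT. Ager_Myd88_null 1 again lay inside the Ager_null range, with the other 3 arrays of its group below every Ager_null array. The change was -0.78 ± 0.20 between Ager_Myd88_null and Ager_null and 0.56 ± 0.19 between Ager_null and WT (limma adjusted p = 0.111). Between Ager_Myd88_null and Myd88_null it was -0.45 ± 0.22 (adjusted p = 0.318), with -0.15 from the arrays of S 1 to 6 and -0.92 from those of S 7 to 12. The value from S 7 to 12 rests on 1 Myd88_null array. The promoters of Stip1 and Chordc1, the called genes of this role, hold neither form of the heat shock repeat in the 250 bases before the start, from which nothing follows about the factor. They are shown for comparison with that of Hsph1 (RefSeq, GRCm38.p6, Stip1 on the minus strand at chr19:7040027-7040276 and Chordc1 on the plus strand at chr9:18292017-18292266).
Stip1: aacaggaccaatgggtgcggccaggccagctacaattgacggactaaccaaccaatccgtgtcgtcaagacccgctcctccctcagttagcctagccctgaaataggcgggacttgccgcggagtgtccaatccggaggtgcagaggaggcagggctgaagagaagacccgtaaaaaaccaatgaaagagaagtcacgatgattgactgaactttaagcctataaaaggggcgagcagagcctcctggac
Chordc1: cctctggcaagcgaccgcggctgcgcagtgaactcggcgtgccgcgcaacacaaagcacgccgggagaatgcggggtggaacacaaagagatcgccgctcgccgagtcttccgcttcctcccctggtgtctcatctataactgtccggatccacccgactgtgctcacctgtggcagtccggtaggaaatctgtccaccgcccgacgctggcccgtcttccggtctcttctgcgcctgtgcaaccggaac

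The other 4 tested genes of the HSP90 role had no p under 0.05 in any comparison. Ahsa1, which stimulates the ATPase of HSP90, was at 10.50 ± 0.08 (SD, n = 4) in Ager_Myd88_null, 10.64 ± 0.18 (n = 6) in Ager_null livers, 10.35 ± 0.17 (n = 4) in Myd88_null livers and 10.46 ± 0.06 (n = 5) in WT. Fkbp4, the immunophilin FKBP52 of steroid receptor complexes, averaged 10.51 ± 0.01 (SD, n = 4) over the Ager_Myd88_null, 10.51 ± 0.19 (n = 6) over the Ager_null, 10.41 ± 0.19 (n = 4) over the Myd88_null and 10.32 ± 0.24 (n = 5) over the WT arrays. Cdc37, which brings kinases to HSP90, and St13, the HSP70-interacting protein HIP, had SDs within groups of 0.107 and 0.138.

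**Figure D2:**
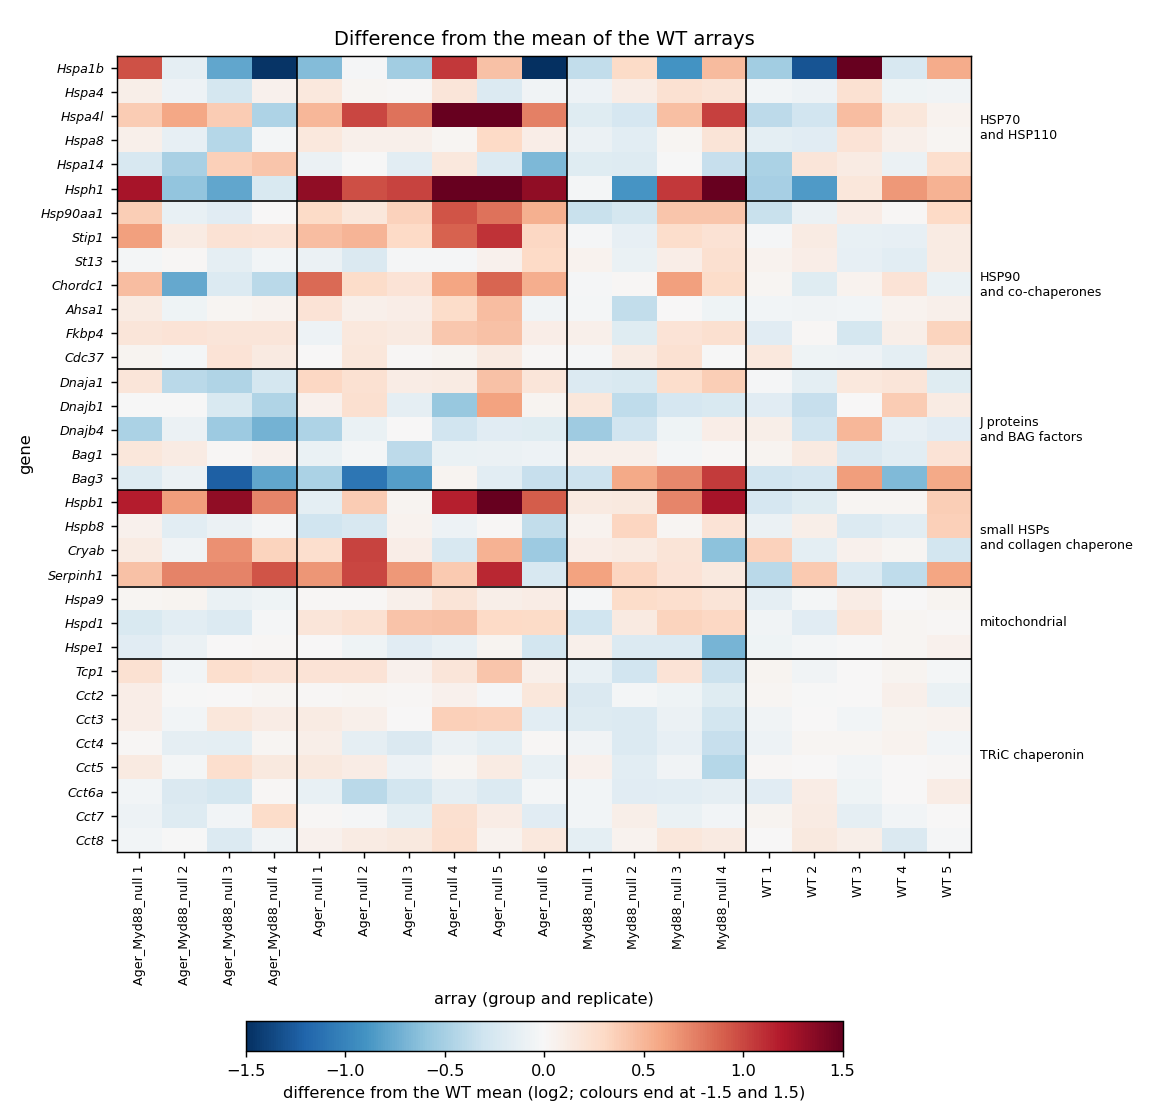
Difference of each array (horizontal axis, group and replicate) from the mean of the WT arrays (log2, colour) for the 33 tested genes (vertical axis, by role). Hsph1, Hspa4l, Stip1, Chordc1 and Hspd1 are red across the Ager_null arrays, Hspa1b and Bag3 vary within groups, and the TRiC genes stay pale.

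In the J proteins and BAG factors, 5 genes were tested and 0 passed limma's test in any comparison, with 1 lower and 1 higher in Ager_Myd88_null than in Ager_null at an unadjusted p under 0.05. Of all tested genes, 22.7% had such a p in this comparison. Dnaja1, a J protein that serves cytosolic HSP70, had 11.90, 11.31, 11.27 and 11.46 in Ager_Myd88_null, 11.83, 11.92 and 12.16 as lowest, median and highest in Ager_null, 11.51, 11.49, 11.98 and 12.09 in Myd88_null and 11.71, 11.57, 11.88, 11.90 and 11.54 in WT. Of the Ager_Myd88_null arrays only the first reached the Ager_null range, in which Myd88_null 3, Myd88_null 4, WT 3 and WT 4 also lay. The change between Ager_Myd88_null and Ager_null was -0.46 ± 0.14 (limma adjusted p = 0.0889). Its 3 probe sets gave -0.46, -0.17 and -0.26 there, but 0.23, -0.21 and 0.14 between Ager_null and WT, so no direction can be given for Dnaja1 in the second of these comparisons. Dnajb1, the HSP40 protein that is induced with HSP70, read 8.22, 8.22, 7.99 and 7.78 in Ager_Myd88_null, 7.66, 8.28 and 8.83 as lowest, median and highest in Ager_null, 8.39, 7.84, 7.98 and 7.99 in Myd88_null, and 8.05, 7.87, 8.23, 8.61 and 8.35 in WT. The Ager_null arrays of Dnajb1 spanned those of all other groups, and its change against WT was 0.04 ± 0.18 (adjusted p = 0.914).

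Bag3, which couples HSP70 to autophagy, had the most negative change between Ager_Myd88_null and Myd88_null, -1.08 ± 0.34 (limma adjusted p = 0.211). Its levels were 8.16, 8.27, 7.14 and 7.57 in Ager_Myd88_null and 8.05, 8.92, 9.08 and 9.40 in Myd88_null, with Myd88_null 1 inside the Ager_Myd88_null range. The arrays of S 1 to 6 gave a difference of -0.27 and those of S 7 to 12 one of -1.72. The latter rests on 1 Myd88_null array, and Myd88_null 4 enters neither value. In Ager_null Bag3 ranged from 7.27 to 8.40 and in WT from 7.70 to 8.99. Bag1, another nucleotide exchange factor of HSP70, was at 11.28 ± 0.07 (SD, n = 4) in Ager_Myd88_null and 11.06 ± 0.13 (n = 6) in Ager_null livers, without overlap (0.22, limma adjusted p = 0.188). Dnajb4, a J protein, had its lowest mean in Ager_Myd88_null, 9.83 ± 0.26 (SD, n = 4), against 10.28 ± 0.31 (n = 5) in WT (-0.45 ± 0.17, limma adjusted p = 0.388).

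Small heat shock proteins hold unfolded proteins in a soluble state, and Serpinh1 (HSP47) folds procollagen in the endoplasmic reticulum. Of the 4 genes, 0 were called by limma, and Hspb1 and Serpinh1 had an unadjusted p under 0.05 in both Ager_null and Ager_Myd88_null against WT. Of all tested genes, 21.6% and 8.57% had such a p in these comparisons. Hspb1, which encodes HSP25, had 9.91, 9.35, 10.06 and 9.45 in Ager_Myd88_null, 8.58, 9.37 and 10.78 as lowest, median and highest in Ager_null, 8.86, 8.88, 9.46 and 9.96 in Myd88_null and 8.47, 8.55, 8.76, 8.76 and 9.10 in WT. All 4 Ager_Myd88_null arrays lay above all WT arrays, and the mean change was 0.97 ± 0.35 (limma adjusted p = 0.372), 1.12 among the arrays of S 1 to 6 and 1.001 among those of S 7 to 12. The change was 0.73 ± 0.32 in Ager_null (adjusted p = 0.19) and 0.56 ± 0.35 in Myd88_null (adjusted p = 0.38), so the point estimates against WT were above 0 in each of the 3 groups, which share the same WT arrays. Cryab and Hspb8, which encode alphaB-crystallin and HSP22, ranged from 4.53 to 6.17 and from 11.47 to 12.20, with no p under 0.05.

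Serpinh1 was at 6.62 ± 0.21 (SD, n = 4) in Ager_Myd88_null, 6.50 ± 0.49 (n = 6) in Ager_null livers, 6.22 ± 0.20 (n = 4) in Myd88_null livers and 5.90 ± 0.46 (n = 5) in WT. Its change against WT was 0.72 ± 0.25 in Ager_Myd88_null (limma adjusted p = 0.345) and 0.60 ± 0.22 in Ager_null (adjusted p = 0.138), but 0.01 against WT 5 within S 13 to 20. Hepatic stellate cells make the collagen that Serpinh1 serves. The summed log2 level of the 8 stellate markers was 43.6 to 47.0 in Ager_Myd88_null, 43.0 to 47.0 in Ager_null, 41.9 to 45.6 in Myd88_null and 41.1 to 43.7 in WT, with Col1a1 and Des under log2 4 on every array. Of the 6 tested markers 1 was called between Ager_null and WT, the collagen gene Col1a2 (0.72 ± 0.15, limma adjusted p = 0.0357). At an unadjusted p under 0.05, 3 were higher. Of all tested genes, 1.26% were called there and 21.6% had such a p. Between Ager_Myd88_null and Ager_null 1 marker was called, lower, against 2.44% of all tested genes. The change of Serpinh1 there was 0.12 ± 0.24 (limma adjusted p = 0.806). The part of these cells in the Serpinh1 values was not tested, and in whole liver more cells of a type and more RNA per cell cannot be told apart.

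**Figure D3:**
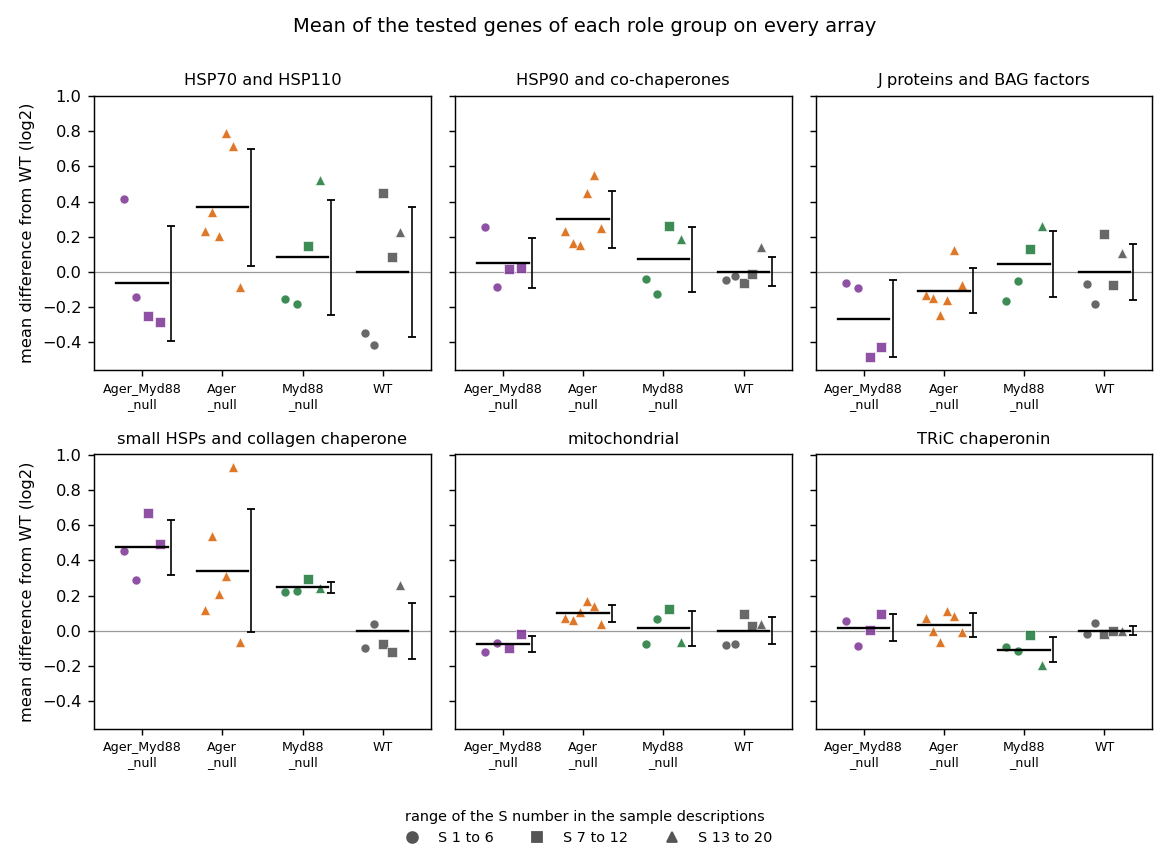
Mean over the tested genes of each role of the difference from the WT mean (log2, vertical axis), 1 point per array by genotype, with a line at the group mean, a bar of 1 SD and the point's shape giving the S range. The HSP90 role had means of 0.30 in Ager_null and 0.05 in Ager_Myd88_null, and the TRiC role stayed between -0.20 and 0.11 on every array.

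The mitochondrial chaperones are HSP60 (Hspd1), its lid HSP10 (Hspe1) and the mitochondrial HSP70 mortalin (Hspa9). Hspd1 had 12.56, 12.63, 12.59 and 12.77 in Ager_Myd88_null, 12.97, 13.08 and 13.22 as lowest, median and highest in Ager_null, 12.49, 12.92, 13.12 and 13.10 in Myd88_null, and 12.73, 12.61, 12.97, 12.82 and 12.80 in WT. The Ager_null arrays were all above the Ager_Myd88_null arrays and all above the WT arrays, although Ager_null 1 and WT 3 both read 12.97, and Myd88_null reached into both ranges. The change was -0.46 ± 0.11 between Ager_Myd88_null and Ager_null, 0.31 ± 0.11 between Ager_null and WT (limma adjusted p = 0.12) and -0.27 ± 0.13 between Ager_Myd88_null and Myd88_null (adjusted p = 0.303). With the S range as a random block the calls of Hspd1 and Chordc1 between Ager_Myd88_null and Ager_null were lost, at changes of -0.45 and -0.79 close to those without the block and adjusted p of 0.0582 and 0.0586. With the S range as a fixed block the changes were -0.35 and -0.83, with adjusted p of 0.35 and 0.249. No S range held arrays of both groups, so these values rest on the WT and Myd88_null arrays to link the ranges. They cannot part S range from genotype.

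Hspe1 is read from the other strand of the same stretch of chromosome 1. Its levels were 12.60, 12.68, 12.77 and 12.78 in Ager_Myd88_null, 12.49, 12.68 and 12.80 as lowest, median and highest in Ager_null, 12.84, 12.56, 12.56 and 12.07 in Myd88_null and 12.70, 12.74, 12.76, 12.80 and 12.83 in WT. The lowest was Myd88_null 4, the array that stood apart. The change of Hspe1 was 0.04 ± 0.12 between Ager_Myd88_null and Ager_null (limma adjusted p = 0.871) and -0.26 ± 0.12 between Myd88_null and WT (adjusted p = 0.247). Hspa9 ranged only from 11.79 to 12.19 over all arrays, with means of 11.89 ± 0.07 (SD, n = 4) in Ager_Myd88_null, 12.00 ± 0.06 (n = 6) in Ager_null livers, 12.09 ± 0.13 (n = 4) in Myd88_null livers and 11.92 ± 0.09 (n = 5) in WT. The 215 bases between the facing starts of Hspd1 and Hspe1 are shown because 1 called gene and 1 gene with a change near 0 share them. Read along Hspe1 (RefSeq, GRCm38.p6, plus strand, chr1:55087933-55088147), they hold 18 bases of alternating heat shock units (capitals), 126 bases from the Hspd1 start and 71 from the Hspe1 start. RefSeq also lists a start of Hspd1 farther out, whose own 250 bases hold no such repeat.
Hspd1 and Hspe1: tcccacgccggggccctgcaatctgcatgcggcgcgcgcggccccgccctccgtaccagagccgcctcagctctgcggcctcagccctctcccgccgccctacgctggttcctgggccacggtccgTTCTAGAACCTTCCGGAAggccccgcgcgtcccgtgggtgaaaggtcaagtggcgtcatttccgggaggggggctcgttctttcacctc

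The form with 3 units was searched as GAANNTTCNNGAA and TTCNNGAANNTTC, each the reverse of the other strand, and the form with 2 units as GAANNTTC and TTCNNGAA, which lie within the longer form. RefSeq promoters were at hand for 30 of the 38 members. In the 250 bases before the start, 3 units stood in 2 of 30 members (6.67%), Hspd1 and Hspe1, and in 139 of all 27025 genes (0.514%). The form with 2 units stood in 12 of 30 members (40.0%) and in 3932 of all genes (14.5%). The hits of Hspd1 and Hspe1 are the same stretch read from both strands. The promoters of Hspa1a and Hspa1b, both counted for the form with 2 units, are near-identical. These members are thus not separate cases in either count. A match describes the letters and shows no binding.

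TRiC, the ring-shaped cytosolic chaperonin that folds actin and tubulin, is built from the products of Tcp1, Cct2, Cct3, Cct4, Cct5, Cct6a, Cct7 and Cct8. All 8 were tested and 0 were called by limma, with 1 at an unadjusted p under 0.05 between Ager_null and WT (Cct6a, lower) and 1 between Ager_Myd88_null and Ager_null (Cct8, lower). Of all tested genes, 21.6% and 22.7% had such a p in these comparisons. The SDs within groups of the 8 TRiC genes lay between 0.069 (Cct2) and 0.145 (Tcp1), under the median of all tested genes. Changes between Ager_null and WT ran from -0.19 (Cct6a) to 0.19 (Tcp1), and between Ager_Myd88_null and Ager_null from -0.21 (Cct8) to 0.09 (Cct5). Of the 8, 7 had a mean below WT in Myd88_null, with a median change of -0.13, and 7 had a mean above Myd88_null in Ager_Myd88_null, with a median of 0.14. Both comparisons use the same 4 Myd88_null arrays, so the opposite signs are not separate evidence. Of all tested genes, 59.2% had a change above 0 in the first comparison and 49.8% in the second. The changes between Ager_Myd88_null and Myd88_null with unadjusted p under 0.05 were those of Cct5 (0.27 ± 0.11, limma adjusted p = 0.258), Cct3 (0.27 ± 0.11, adjusted p = 0.261) and Tcp1 (0.29 ± 0.12, adjusted p = 0.262). Such a p was reached by 16.1% of all tested genes there. Myd88_null 4 was the lowest array for 6 of the 33 members, Cct3, Cct4 and Cct5 among them. Hsf2, a heat shock factor, read at most 2.52 and could not be compared.

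Between Ager_null and WT, 1 of 33 members was called (3.03%), higher, against 1.26% of all tested genes in either direction. At an unadjusted p under 0.05 the counts were 9 of 33 (27.3%, 8 higher and 1 lower) and 21.6% of all tested genes. The arrays of the groups did not overlap for 5 members (15.2%), namely Hsph1, Hspa4l, Stip1, Hspd1 and Tcp1, all higher in Ager_null, and for 3.7% of all tested genes. The change was above 0 for 24 of the 33, with a median of 0.08, whereas 52.2% of all tested genes had a change above 0, with a median of 0.02. The median over the members against WT 5 alone was 0.04.

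Between Ager_Myd88_null and Ager_null, 2 of 33 members were called (6.06%), both lower, against 2.44% of all tested genes. An unadjusted p under 0.05 was reached by 9 members (27.3%, 8 lower and 1 higher) and by 22.7% of all tested genes, and the groups did not overlap for 3 members (9.09%, Hspd1 and Cct8 lower, Bag1 higher) and for 8.39% of all. The shares without adjustment and without overlap were thus close to those of all genes. The median change was -0.05 over the members and 0.04 over all tested genes, and 22 of 33 members had a change below 0. Both this comparison and that of Ager_null with WT use the same 6 Ager_null arrays, so opposite signs of a gene in them are not separate evidence.

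**Figure D4:**
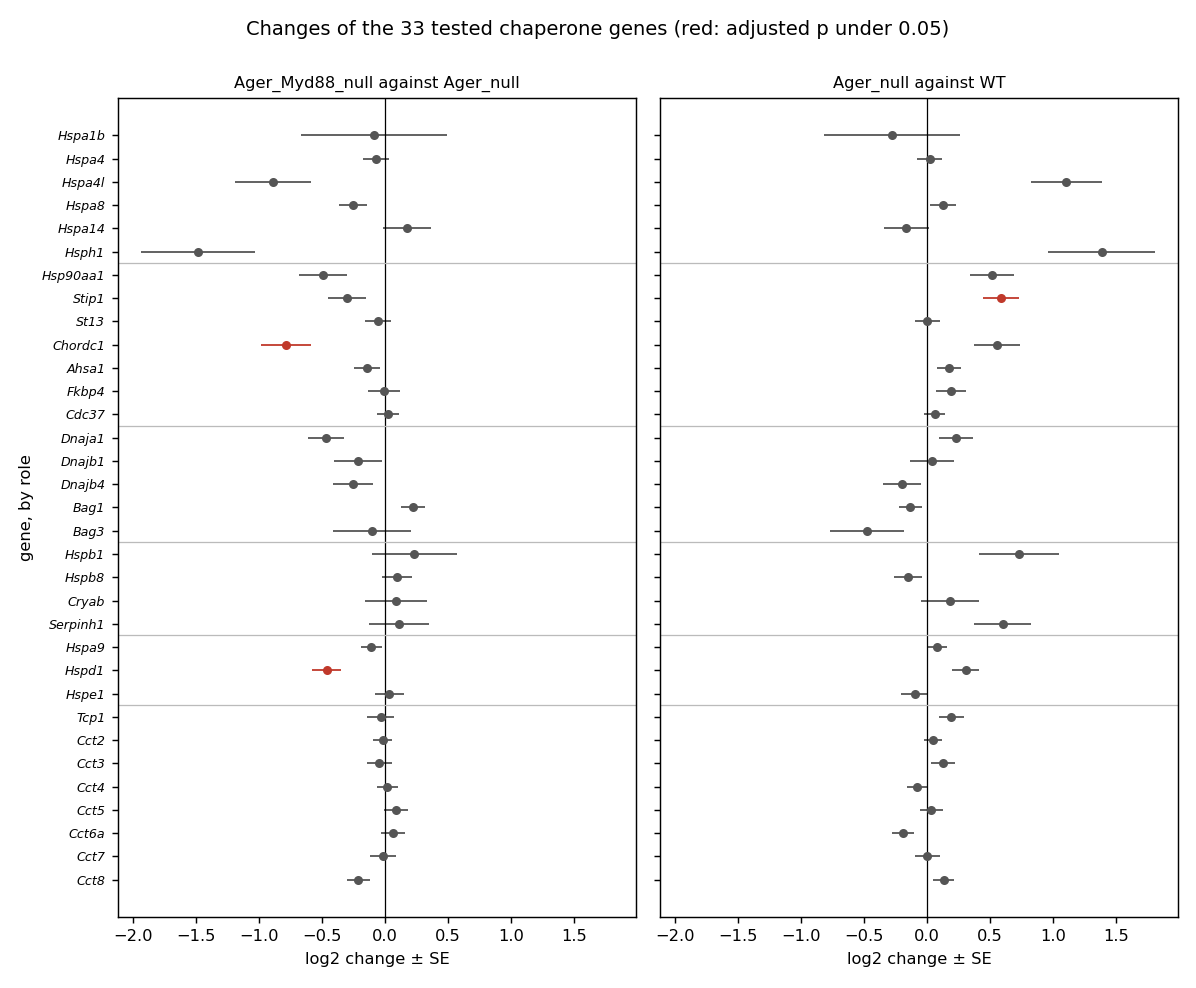
Log2 change ± SE (horizontal axis) of the 33 tested genes (vertical axis, by role) between Ager_Myd88_null and Ager_null (left) and between Ager_null and WT (right), in red where the adjusted p was under 0.05. Chordc1 and Hspd1 are red on the left and Stip1 on the right, and Hsph1 has the longest change and a wide error on both sides.

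The interaction asks whether the effect of Myd88 loss differed without Ager, and is the change between Ager_Myd88_null and Ager_null minus that between Myd88_null and WT. No member was called, against 2.41% of all tested genes, and 6 of 33 had an unadjusted p under 0.05 (18.2%, all negative) against 27.2% of all. The smallest p-values were those of Chordc1 (-1.003 ± 0.29, limma adjusted p = 0.0596), Hspd1 (-0.58 ± 0.17, adjusted p = 0.0597), Hsph1 (-1.91 ± 0.65, adjusted p = 0.0887), Hspa4l (-1.15 ± 0.44, adjusted p = 0.114), Dnaja1 (-0.51 ± 0.21, adjusted p = 0.133) and Hspa9 (-0.28 ± 0.12, adjusted p = 0.144). Leaving out 1 array gave from 0 to 4 called members, with 4 without Myd88_null 1 (Chordc1, Hspa9, Hspd1 and Hsph1), 2 without Ager_Myd88_null 1 (Chordc1 and Hsph1), 1 without WT 3 (Hspd1) and 0 without any other. The calls over all tested genes, 205 in the full fit, numbered 1739 without Myd88_null 1 and 0 without Myd88_null 3, Myd88_null 4 or Ager_Myd88_null 3, so the share over all genes rests on single arrays too.

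The remaining comparisons gave 0 called members each. Between Myd88_null and WT, 0.399% of all tested genes were called, and 1 of 33 members (Hspe1, 3.03%) had an unadjusted p under 0.05, against 19.6% of all. Next came Hspa9 (0.18 ± 0.08), Cct4 (-0.18 ± 0.09), Cct3 (-0.19 ± 0.10), Hspb1 (0.56 ± 0.35) and Bag3 (0.51 ± 0.32), with limma adjusted p from 0.261 to 0.389. Kupffer cell markers had a mean level of 8.37 ± 0.94 (SD, n = 4) in Myd88_null and 9.04 ± 0.37 (n = 5) in WT and with 0 of 10 called by limma, 1 (Adgre1) at an unadjusted p under 0.05. Their part in the results was not tested. Between Ager_Myd88_null and WT, 0.317% of all genes were called, and 3 members (9.09%: Serpinh1, Hspb1 and Dnajb4) had an unadjusted p under 0.05, against 8.57% of all. Between Ager_Myd88_null and Myd88_null 0.153% of all genes were called, and 6 members (18.2%) had an unadjusted p under 0.05, against 16.1% of all, namely Bag3, Cct5, Cct3, Tcp1, Hspa9 (-0.20 ± 0.09) and Hspd1.

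The highest reading of a member fell on Ager_null 5 for 12 of the 33 genes, on Ager_null 4 for 4 and on no other array for more than 3. The mean difference from WT over the 33 genes was 0.41 on the highest Ager_null array and 0.02 on the lowest, against group means of 0.01 ± 0.11 (SD, n = 4) in Ager_Myd88_null, 0.17 ± 0.15 (n = 6) in Ager_null livers, 0.04 ± 0.12 (n = 4) in Myd88_null livers and 0 ± 0.11 (n = 5) in WT. Without Ager_null 5 the change of Stip1 against WT was 0.49, and 0 members were called.

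Other probe sets give a check on single readings. The 35 members with a usable probe set had 94 of them, 66 passed the filter and 21 genes had several. All sets of a gene had 1 sign for 14 of these 21 genes between Ager_null and WT and for 14 between Ager_Myd88_null and Ager_null. Hsph1 gave 1.39 and 1.53, and -1.48 and -1.63. The sets of Hspb1 gave 0.73 and 0.76 between Ager_null and WT, those of Serpinh1 0.60 and 0.32, and those of Hspa8 0.12, 0.23 and -0.14. Stip1, Chordc1 and Hspd1, the called genes, had 1 set each over the filter.

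**Figure D5:**
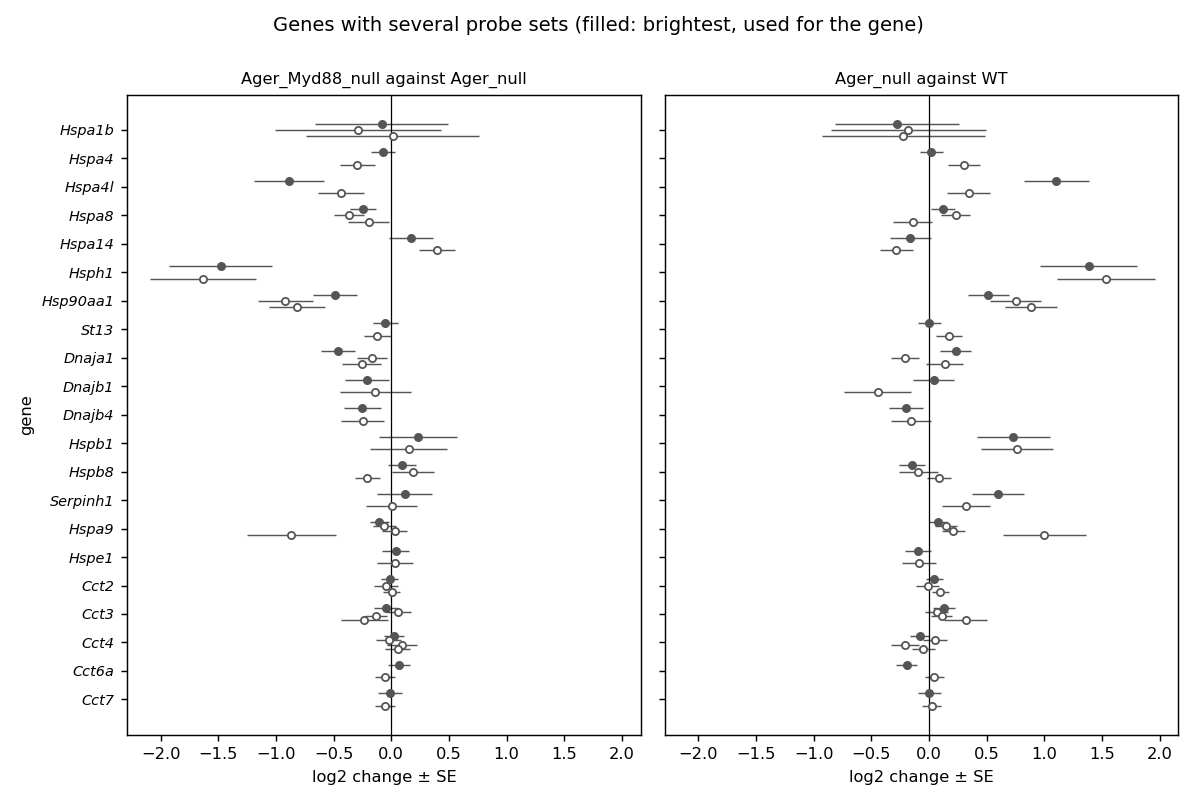
Log2 change ± SE (horizontal axis) of every probe set over the filter for the 21 genes with several (vertical axis), between Ager_Myd88_null and Ager_null (left) and between Ager_null and WT (right), filled for the brightest set of a gene. The sets of Hsph1 and Hsp90aa1 lie on 1 side of 0 in each panel, and those of Dnaja1 lie on both sides in the right panel.

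Of 78 other chaperone and stress genes listed beside the members, 70 were tested. Between Ager_null and WT 2 were called, both higher and both of the endoplasmic reticulum: Creld2 (0.97 ± 0.18, limma adjusted p = 0.0191), induced by unfolded protein there, and the disulfide isomerase gene Pdia6 (0.56 ± 0.13, adjusted p = 0.0485). Between Ager_Myd88_null and Ager_null 3 were called, all lower: Creld2 (-0.85 ± 0.19, adjusted p = 0.0343), Pdia6 (-0.59 ± 0.14, adjusted p = 0.0452) and Fkbp5 (-1.61 ± 0.27, adjusted p = 0.0073), an HSP90 co-chaperone gene that glucocorticoids induce. For the interaction 2 were called, Fkbp5 (-2.08 ± 0.40, adjusted p = 0.026) and Creld2 (-1.18 ± 0.28, adjusted p = 0.0388). Of all tested genes, 1.26%, 2.44% and 2.41% were called in these comparisons, in this order. The list of 14 endoplasmic reticulum genes had a median change of 0.19 between Ager_null and WT and -0.18 between Ager_Myd88_null and Ager_null. For the 25 tested other cytosolic genes these medians were 0.01 and 0.15, with 0 and 1 called. Those of the 12 tested mitochondrial genes were 0.12 and 0.20. The 13 prefoldin and tubulin cofactors had medians of -0.22 and 0.26, opposite in sign to those of the endoplasmic reticulum list. The 6 other heat shock factor targets and stress genes had 0.08 and -0.04. Of these last 3 lists 0 genes were called by limma in these comparisons. At an unadjusted p under 0.05 between Ager_null and WT, 2 mitochondrial genes were higher and 1 lower, 2 cofactors were lower and 1 of the stress genes was lower. There, 6 of the other cytosolic genes were higher and 1 lower, and 3 of the endoplasmic reticulum genes were higher and 1 lower. The share of all tested genes was 21.6%. Between Ager_Myd88_null and Ager_null, 4 mitochondrial genes were higher and 1 lower, 5 cofactors were higher and 0 stress genes passed. Here 3 of the other cytosolic genes were higher and 2 lower, and 7 of the endoplasmic reticulum genes were lower and 0 higher. The share of all tested genes was 22.7%. These comparisons share the Ager_null arrays.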

How the data were processed

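RNA from 19 livers was read on Affymetrix arrays. Per the submitters' processing notes the authors used GCRMA 2.16, and the log2 level of each probe set was deposited. These values were used unchanged (lowest 0.743, highest 15.6, medians by array 2.75 to 2.83). What else was done upstream is not given in the sources. The number of arrays limits the precision.

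The table holds 45101 probe sets: 64 controls, 34945 with 1 gene symbol in the platform annotation, 932 with several and 9160 with none. The brightest set with 1 symbol stood for its gene. Genes over log2 4 on at least 4 arrays entered 1 limma fit of all 4 groups (limma 3.58.1, R 4.3.3, lmFit and eBayes, two-sided) with no block, and Benjamini-Hochberg adjustment ran over the 8515 genes. Calls needed an adjusted p under 0.05, and changes carry standard errors.

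Titles gave the groups. No 2 arrays of a group were closer than 0.328 (root mean square). The p-values set differences of group means against the spread between arrays within groups, as moderated by limma. The fit was tested on simulated data. Members, lists and alternatives were chosen with earlier results of these data known. Values with tests are given for called members and, to a total of 6 per comparison, for those of smallest p. Promoters are from RefSeq (GRCm38.p6), and the motif search covered both strands. The alternatives were other scalings, filters, probe set rules, blocks, moderation, array weights, smaller fits and single arrays left out.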

Additional observations from a re-analysis of the deposited data

Results flagged for a closer look

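Of 160 sets of values (single genes and means over genes, each in 1 group), 8 had an array far from the others of its group, by a rule that chance meets in about 1 set in 20. Hspa4 read 10.97 on WT 3, with the next WT array at 10.69. Cct5 read 12.01 on the same array, WT 3, as its lowest WT value, with the next at 12.07. Bag1 read 10.80 on Ager_null 3, where the next lowest Ager_null array had 11.08. On Ager_Myd88_null 2, Fkbp4 was at 10.52, next to 10.50, and Tcp1 at 10.49, next to 10.74. Cryab read 4.53 on Myd88_null 4, the array least like the rest, with the next Myd88_null array at 5.25. The mean difference from WT over all tested members was 0.176 on Ager_Myd88_null 1, against -0.0314 on the next array of its group. The same mean over the HSP90 role was 0.142 on WT 5, against -0.0094 on the next WT array, and WT 5 is the only WT array in the S range of the Ager_null arrays.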

How the results depend on the processing

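Few members were called in any setting, and the calls moved with the processing. Between Ager_null and WT the deposited values gave 1 called member, and there were 0 after quantile normalization, after centring on array medians, without the filter, with the S range as a fixed or a random block, or with only these groups in the fit, 2 with the replicate block (Serpinh1 and Stip1) and 5 with array weights (Hspa4l, Hspd1, Hsph1, Serpinh1 and Stip1). Between Ager_Myd88_null and Ager_null 2 were called, and there were 0 without the filter, with the replicate block and with the S range as a fixed or a random block, and 4 with array weights (Chordc1, Dnaja1, Hspd1 and Hsph1). With only these groups in the fit 2 were called, but they were Hspd1 and Hsph1, and Chordc1 was lost (limma adjusted p = 0.0708). For the interaction, where 0 were called, the mean of probe sets gave 1, moderation with trend and robust 1 and array weights 3. Array weights gave 1 for Myd88_null against WT (Hspa9) and 1 for Ager_Myd88_null against Myd88_null (Bag3), and the replicate block gave 1 for Ager_Myd88_null against WT (Serpinh1), each with 0 otherwise. Leaving out 1 array gave 0 to 3 called members for Ager_null against WT, 0 to 1 for Myd88_null against WT, 0 for Ager_Myd88_null against WT in every fit, 0 to 3 for Ager_Myd88_null against Ager_null, 0 to 2 for Ager_Myd88_null against Myd88_null and 0 to 4 for the interaction. The causes were not tested. Replicate numbers did not pair the arrays: 9 of 25 same-numbered pairs had a correlation of deviations over 0.1, and 3 of 18 arrays correlated best with their own number. The alternatives followed 36 changes of single members, the 6 of smallest p in each comparison. Of the values obtained 1016 stayed on their side of the threshold, 31 gained and 59 lost it and 1 turned its sign (Hspa9, Ager_Myd88_null against Myd88_null, 0.00525 with the mean of probe sets). Only the called changes of Stip1, Hspd1 and Chordc1 could lose a call, so all 59 losses are theirs. Each of them had 19 fits with 1 array left out and 12 other alternatives. All 185 medians over the members differed from the reported one by less than the spread between arrays. The reported medians lay between -0.06 and 0.08, and the SD of the member mean within groups between 0.11 and 0.15. A median could thus change its sign and still meet this rule, so it shows no stability. Over all tested genes the counts moved too. Between Ager_null and WT they were 107 as reported (71 higher, 36 lower), 43 without the filter, 59 and 60 with the S range as a fixed and a random block, 711 with array weights and 33 with these groups alone, and quantile normalization gave 53 higher and 44 lower and centring 50 and 41. Between Ager_Myd88_null and Ager_null they were 208 (136 higher, 72 lower), 91 without the filter, 138 with the replicate block, 120 and 92 with the S blocks and 619 with array weights, and centring gave 62 higher and 93 lower. For the interaction they were 205 (49 positive, 156 negative), 76 without the filter, 37 with the replicate block, 0 with the S range as a fixed block and 1382 with array weights, and quantile normalization gave 88 positive and 139 negative and centring 69 and 120. Between Myd88_null and WT they were 34 (27 higher, 7 lower), 11 after quantile normalization (4 higher, 7 lower), 12 after centring (5 higher, 7 lower), 12 with the filter at log2 6, 86 with the S range as a fixed block, 785 with array weights and 7 with these groups alone, and centring moved the median change of all genes to -0.05, against 0.06 as reported. Between Ager_Myd88_null and WT they were 27, 46 with the replicate block and 42 with array weights, and between Ager_Myd88_null and Myd88_null 13, 3 with the replicate block, 5 with the S range as a fixed block, 293 with array weights and 4 with these groups alone. Leaving out 1 array gave 16 (without WT 5) to 403 (without Myd88_null 1) calls over all genes for Ager_null against WT, 10 (without Myd88_null 4) to 987 (without Myd88_null 1) for Myd88_null against WT, 18 (without Ager_Myd88_null 3) to 34 (without Ager_null 5) for Ager_Myd88_null against WT, 18 (without Ager_Myd88_null 3) to 368 (without Myd88_null 1) for Ager_Myd88_null against Ager_null, 2 (without Myd88_null 4 or Ager_Myd88_null 3) to 446 (without Myd88_null 1) for Ager_Myd88_null against Myd88_null, and 0 to 1739 for the interaction. Stip1, Chordc1 and Hspd1 were over log2 4 on all 19 arrays.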
